A study of Mus musculus with 9 samples.

Results

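Lipoprotein lipase, the intracellular lipases and the proteins of the lipid droplet decide how much fatty acid a heart takes from circulating triglyceride, how much it stores and how much it releases again. The heart counts were searched by symbol for 10 genes of this system, and all 10 were found among the 13890 genes listed. They are Lpl, Angptl4 and Gpihbp1, which act in the capillary, the lipase genes Pnpla2 and Lipe, the lipid droplet coat genes Plin2, Plin4 and Plin5, and Dgat1 and Dgat2, which make triglyceride. The genes were chosen for their function. All 10 passed the filter on low counts.

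RNA came from the hearts of 9 male NSG mice, 3 in each of 3 groups, which were 8 weeks old at surgery and were killed about 3 weeks later. NSG mice lack mature lymphocytes and accept human cells. Sham-operated mice (S) received saline in the spleen, and tumour hosts (T) received HCT116 cells, a human colorectal cancer line that seeds the liver from the spleen. Hosts of the third group (A+T) received the same cells and weekly ACVR2B/Fc, a soluble form of the activin receptor type 2B that binds activins, myostatin and related ligands. Each library came from 1 numbered animal (2, 3 and 5 in S, 11, 12 and 15 in T, and 20, 21 and 22 in A+T). The label of the T group is in doubt. Fold changes of the libraries labelled T vs. S matched, gene for gene, the values that the study lists for ACVR2B vs. sham and not those that it lists for tumour hosts vs. sham. The study also had sham mice given ACVR2B/Fc, and no library here is labelled as such. Only T vs. S was set against the values of the study. Which label is in error, and whether the label of A+T is affected, was therefore not tested. T and A+T below mean the libraries so labelled, and every direction that involves them rests on these labels.

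Lipoprotein lipase is made by cardiomyocytes and other parenchymal cells, carried to the capillary lumen by GPIHBP1 and held there, where it splits the triglyceride of chylomicrons and very-low-density lipoprotein. ANGPTL4 is a secreted inhibitor of the lipase and its gene is a classical target of the fatty acid receptors of the PPAR family. Inside the cell, fatty acids are esterified in a last step by DGAT1 or DGAT2 and stored in droplets coated by perilipins. They are released by adipose triglyceride lipase (Pnpla2) and then by hormone-sensitive lipase (Lipe).

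The libraries held 12392222 to 19732471 counts, so that 3 counts, taken as the floor for reading a level, equalled 0.152 to 0.242 CPM (a counts-per-million unit). Levels below are CPM after TMM scaling, a correction for differences in library composition. Cardiomyocyte markers were abundant in each library (8 of 8 listed, summed level 49616 to 71511 CPM). Atrial markers summed to 2908 to 2970 CPM in S, 859 to 4553 CPM in T (highest in animal 12) and 793 to 2003 CPM in A+T, and the part of this difference in the results below was not tested. Of 8 adipocyte markers listed, 4 were in the counts. These were low in all but animal 12 of T, with a summed level of 1.22 to 18.4 CPM in S, 1.5 to 78.1 CPM in T and 1.36 to 7.70 CPM in A+T. Animal 12 of T and animal 22 of A+T also stood apart by airway and lung markers, at 104 and 1278 CPM against 0.498 to 2.39 CPM elsewhere. Of 7 such markers listed, 3 were in the counts. For the genes searched by symbol, test results that change without one of these animals are given both ways. Only some calls of other genes were checked in this way, and no such fit is given for the marker lists.

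The genes lie on 5 chromosomes of GRCm38, the assembly that mm10 names. Lpl is at chr8:68880491-68907448, Angptl4 at chr17:33773750-33781830, Gpihbp1 at chr15:75596628-75599481, Pnpla2 at chr7:141455198-141460743, Lipe at chr7:25379527-25398710, Plin2 at chr4:86648386-86670060, Dgat1 at chr15:76502015-76511953 and Dgat2 at chr7:99153658-99182719. Plin4 (chr17:56100591-56109803) and Plin5 (chr17:56111601-56117596) are neighbours on the minus strand, with 1797 bases between them. Their starts are shown because these adjacent genes of 1 family behaved differently across the groups, and the start of Plin2 is shown as the remaining coat gene. The sequences are from RefSeq (GRCm38.p6), which gave a start for 5 of the 10 genes, and each run lies before the start, holds no annotated exon, and is on the minus strand, at chr4:86670061-86670309 for Plin2, chr17:56109804-56110032 for Plin4 and chr17:56117597-56117798 for Plin5. Capitals mark AGGTCA or its reverse complement TGACCT, the hexamer bound by PPARs and other nuclear receptors.
Plin2: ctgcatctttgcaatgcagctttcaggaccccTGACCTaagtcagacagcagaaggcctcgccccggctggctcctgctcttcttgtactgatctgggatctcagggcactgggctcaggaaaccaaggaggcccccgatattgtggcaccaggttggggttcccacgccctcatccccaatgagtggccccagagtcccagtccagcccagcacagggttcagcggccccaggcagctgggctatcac
Plin4: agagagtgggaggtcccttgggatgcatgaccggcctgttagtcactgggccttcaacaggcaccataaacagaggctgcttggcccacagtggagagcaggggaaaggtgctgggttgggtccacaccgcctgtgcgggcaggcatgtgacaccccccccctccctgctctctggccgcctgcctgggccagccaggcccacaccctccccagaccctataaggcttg
Plin5: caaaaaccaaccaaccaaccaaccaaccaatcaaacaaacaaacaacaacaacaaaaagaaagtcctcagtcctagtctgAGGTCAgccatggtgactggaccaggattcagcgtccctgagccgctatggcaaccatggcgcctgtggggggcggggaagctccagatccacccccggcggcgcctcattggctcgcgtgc
This hexamer was found once before Plin2, 218 bases before the start, and once before the upstream start of Plin5, at 170 bases. It was not found in the 250 bases before Plin4, Lipe or Pnpla2. Of all 32851 promoter windows of this length, 14.0% held at least 1 such hexamer on either strand. A direct repeat of 2 hexamers spaced by 1 base, the full PPAR element in its consensus letters, was in 0.0335% of the windows and in none of the 5 genes matched. A match describes letters only, and these letters being absent from a window says nothing about binding.

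In T vs. S, 5 of the 10 genes rose and none fell (edgeR quasi-likelihood test, adjusted P under 0.05 over 13364 genes). They were Lpl, Angptl4, Lipe, Plin2 and Plin4, where 10.3% of all genes tested rose and 21.2% passed in either direction. The same 5 also passed the study's thresholds of P under 0.05 and at least 1.5-fold, which 14.2% of all genes passed in either direction. Every T library was above every S library in 8 of the 10 genes, the 5 above with Gpihbp1, Pnpla2 and Dgat1, where 42.6% of all genes were free of overlap in either direction. The median log2 fold change of the 10 genes was 0.73, against −0.00 over all genes. Plin5 and Dgat2 overlapped between the groups.

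Between A+T and T, 2 of the 10 genes, Lpl and Plin4, were lower in A+T and none was higher. Of all genes tested, 2.79% were lower, 3.09% were higher and 5.88% passed in all. Against S, 4 genes were higher in A+T and none was lower (Angptl4, Lipe, Plin2 and Plin4), where 4.67% of all genes were higher and 8.31% passed in all. The median log2 fold change of the 10 genes was −0.17 in the first of these comparisons and 0.35 in the second, against 0.01 and 0.00 over all genes. The 3 comparisons share libraries, so their values are given side by side and are not independent.

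**Figure D1:**
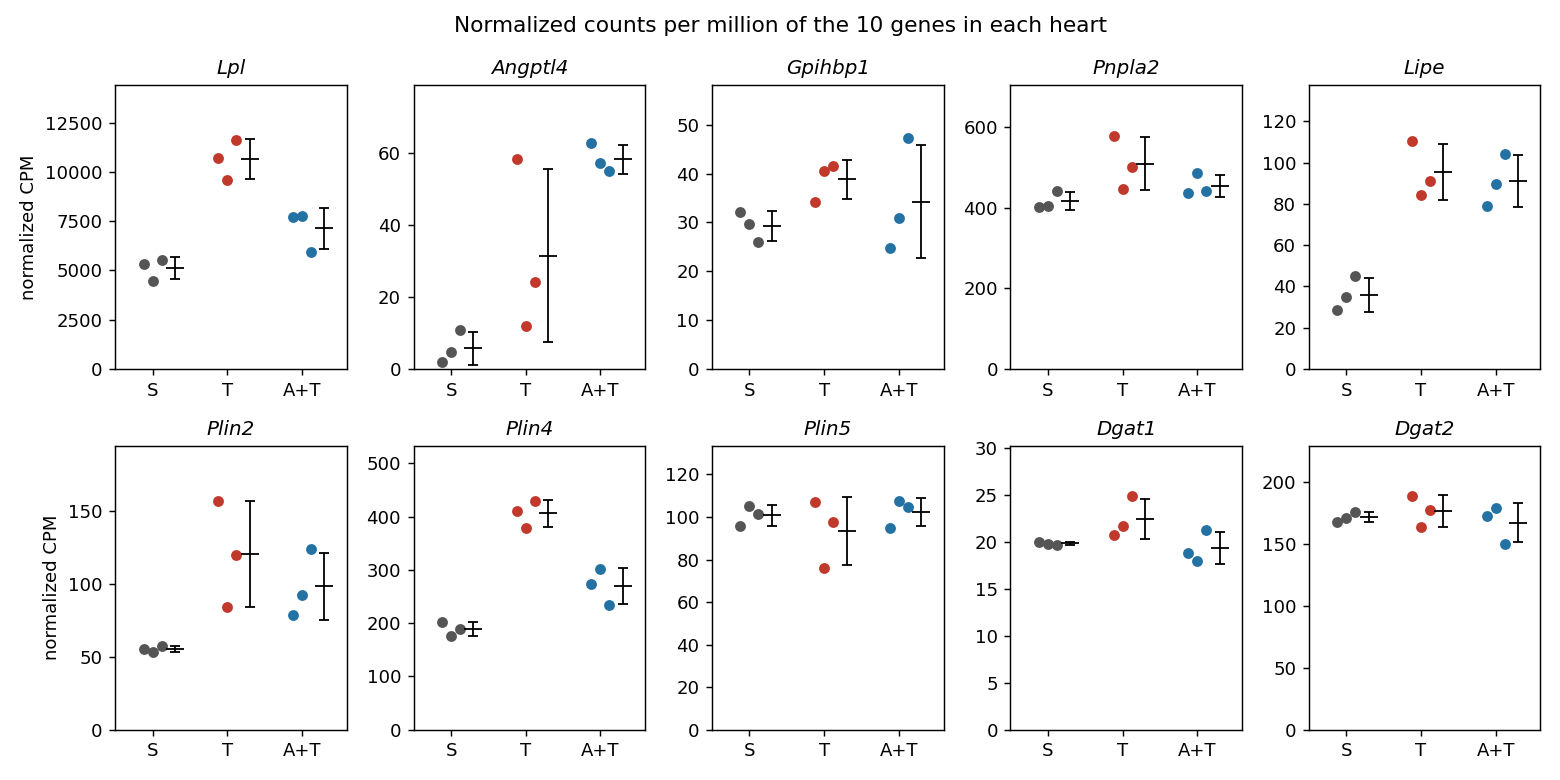
Level of each gene (vertical axis, normalized CPM from 0; scale differs by panel) in the 3 libraries of S, T and A+T (points, 1 per animal), with the group mean and SD beside them. Lpl and Plin4 were highest in T with A+T between T and S, Lipe was as high in A+T as in T, and Angptl4 was spread widely in S and T but not in A+T.

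Lpl encodes the lipase that frees fatty acids from circulating triglyceride. It was measured at 5334, 4486 and 5525 CPM in S, at 10713, 9585 and 11617 CPM in T, and at 7690, 7789 and 5928 CPM in A+T. The groups did not overlap, and A+T lay between S and T. Lpl took 0.479% to 0.584% of all counts in S, 0.591% to 0.823% in A+T and up to 1.09% in T. The mean was 5115 ± 553 CPM in S, 10638 ± 1018 CPM in T and 7136 ± 1047 CPM in A+T (SD, n = 3). It rose 2.08-fold in T vs. S (log2 fold change 1.06, SE 0.14, edgeR adjusted P = 0.00084) and passed the test in each of the 18 alternative analyses. It fell by 0.58 on the log2 scale in A+T vs. T (SE 0.14, adjusted P = 0.039), and this call was lost without any one of animals 2, 3, 5, 11, 15, 20 or 21, with an adjusted P of up to 0.119. It was also lost with library size only (0.067), the compared groups alone (0.101) and the deposited log2 values (0.060). The decrease of 1.49-fold lay under the study's threshold of 1.5-fold. The value for A+T vs. S was 0.48 (adjusted P = 0.058), and 0.60 (adjusted P = 0.014) without animal 22. It also passed by DESeq2 (adjusted P = 0.0050), limma-voom (0.049) and upper-quartile scaling (0.046). In these samples of whole tissue, a change in the number of cells of one type cannot be told apart from a change in RNA per cell.

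Angptl4 encodes the secreted inhibitor of the lipase. Its levels were 1.82, 4.67 and 10.8 CPM in S, 58.4, 11.8 and 24.2 CPM in T, and 62.8, 57.3 and 55.0 CPM in A+T. The highest S library and the lowest T library were close, and animal 11 of T was at the level of A+T. These levels rest on 33 to 149 counts in S, 199 to 942 in T and 798 to 1015 in A+T, all well over the floor. The highest library was 5.91 times the lowest in S and 4.93 times the lowest in T, but 1.14 times in A+T. Angptl4 had the largest fold change of the 10 genes in T vs. S (log2 fold change 2.51, SE 0.61, 95% interval 1.16 to 3.85, adjusted P = 0.015) and in A+T vs. S (3.39, SE 0.61, 95% interval 2.05 to 4.74, adjusted P = 0.011). The first call was lost without animal 2 (adjusted P = 0.052), animal 3 (0.065) or animal 11 (0.067, with a log2 fold change of 1.67), and the second without animal 3 (0.059). Without animal 5, the log2 fold changes were higher, at 3.26 in T vs. S and 4.15 in A+T vs. S. For A+T vs. T the value was 0.89 (95% interval −0.28 to 2.05, adjusted P = 0.35), which did not pass the test, and 1.72 (adjusted P = 0.14) without animal 11. The sign of this value was opposite to that of Lpl.

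Gpihbp1 encodes the capillary protein that carries and anchors the lipase. It was at 32.1, 29.8 and 26.0 CPM in S, at 34.3, 40.6 and 41.6 CPM in T, and at 24.7, 30.9 and 47.3 CPM in A+T. The T libraries were just above S, while A+T spanned both groups. No comparison passed the test. T vs. S was 0.40 (95% interval −0.04 to 0.85, adjusted P = 0.18). A+T vs. T was −0.18 (−0.62 to 0.26, adjusted P = 0.64) and A+T vs. S was 0.23 (−0.21 to 0.67, adjusted P = 0.50). Without animal 22 of A+T, T vs. S was 0.41 (adjusted P = 0.023) and A+T vs. T was −0.48 (adjusted P = 0.0497). Animal 22 is in neither group of T vs. S, whose value hardly moved, but it enters the estimate of spread that all groups share. With only S and T in the fit, T vs. S passed too (0.41, adjusted P = 0.020). A+T vs. S did not pass without animal 22 (−0.07, adjusted P = 0.77). In T vs. S, where 21.2% of all genes passed, 5 of 8 capillary endothelium markers fell (Cdh5, Kdr, Tie1, Tek and Emcn), and none rose. Their list summed to 1107 to 1295 CPM in S, 781 to 877 CPM in T and 775 to 1077 CPM in A+T. The part of this difference in the values of Gpihbp1 was not tested.

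Pnpla2 encodes adipose triglyceride lipase, which takes the first fatty acid from stored triglyceride. It was at 403, 405 and 443 CPM in S, 579, 448 and 502 CPM in T, and 437, 486 and 441 CPM in A+T. All T libraries were above all S libraries, but the lowest of T was close to the highest of S. T vs. S was 0.29 (95% interval 0.06 to 0.52, adjusted P = 0.071), which did not pass the test. It passed by DESeq2 (adjusted P = 0.034), without animal 12 (0.37, adjusted P = 0.031) and without animal 22 (0.30, adjusted P = 0.044).

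Lipe encodes hormone-sensitive lipase, which acts mainly on diglyceride. Its levels were 28.5, 34.7 and 44.8 CPM in S, 111, 84.5 and 90.8 CPM in T, and 79.0, 89.4 and 104 CPM in A+T. T and A+T were clear of S and overlapped each other. It rose 2.65-fold in T vs. S (log2 fold change 1.41, SE 0.17, adjusted P = 0.00052) and 2.53-fold in A+T vs. S (1.34, SE 0.17, adjusted P = 0.0029), and both passed in all 18 alternatives. A+T vs. T was −0.07 (95% interval −0.43 to 0.29, adjusted P = 0.85). Lipe is also an adipocyte gene. The adipocyte markers summed to 1.22, 2.84 and 18.4 CPM in S, 6.38, 78.1 and 1.5 CPM in T, and 6.99, 1.36 and 7.70 CPM in A+T, for the animals in the same order as above. Lipe followed the order of this sum in S but not in T or A+T, although animal 22 had the highest value of both in A+T, and the part of adipocytes in the Lipe values was not tested.

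Of the coat genes, Plin2 is the perilipin most bound to droplets in cells that are not adipocytes. It was tight in S at 55.4, 53.5 and 57.6 CPM, and spread at 157, 84.3 and 120 CPM in T and 78.7, 92.8 and 124 CPM in A+T. No library of T or A+T was as low as S. It rose in T vs. S (log2 fold change 1.12, SE 0.21, adjusted P = 0.0049), in all 18 alternatives too. The rise in A+T vs. S (0.83, SE 0.21, adjusted P = 0.041) was lost without any one of animals 2, 3, 5, 15, 21 or 22, with an adjusted P of up to 0.126. The call was also lost with the deposited log2 values in limma (adjusted P = 0.089). A+T vs. T was −0.29 (95% interval −0.76 to 0.17, adjusted P = 0.45).

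Plin4 encodes a perilipin that coats small droplets. It was measured at 203, 176 and 189 CPM in S, 411, 378 and 429 CPM in T, and 274, 302 and 235 CPM in A+T. The 3 groups were separate, in the same order as for Lpl. Plin4 had the smallest adjusted P of the 10 genes in T vs. S (log2 fold change 1.10, SE 0.11, adjusted P = 0.00018), and passed in all 18 alternatives. The decrease of 0.59 in A+T vs. T (SE 0.10, adjusted P = 0.014) was lost without animal 11 (adjusted P = 0.062) and in the fit of the compared groups alone (0.053). A+T vs. S was 0.51 (SE 0.10, adjusted P = 0.018), lost without animal 3 (0.080), animal 5 (0.058) or animal 21 (0.052).

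Plin5, the perilipin of oxidative tissue, ties droplets to mitochondria. Its levels were 95.7, 105 and 101 CPM in S, 107, 75.9 and 97.5 CPM in T, and 95, 107 and 105 CPM in A+T, and the 3 groups overlapped. T vs. S was −0.11 (95% interval −0.37 to 0.15, adjusted P = 0.55), A+T vs. T was 0.13 (−0.13 to 0.39, adjusted P = 0.56) and A+T vs. S was 0.02 (−0.24 to 0.28, adjusted P = 0.93). In T vs. S the upper bound lies under the lower bound for Plin4, its neighbour on the chromosome (0.87).

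Dgat1 and Dgat2 encode unrelated enzymes that add the last fatty acid of triglyceride. Dgat1 was at 20, 19.8 and 19.7 CPM in S, 20.8, 21.7 and 24.9 CPM in T, and 18.8, 18.0 and 21.3 CPM in A+T. Dgat2 was at 168, 171 and 176 CPM in S, 189, 163 and 177 CPM in T, and 173, 179 and 150 CPM in A+T. Neither passed the test in any comparison. For Dgat1, T vs. S was 0.17 (95% interval −0.04 to 0.39, adjusted P = 0.23) and A+T vs. T was −0.21 (−0.43 to 0.01, adjusted P = 0.24). Dgat2 gave 0.04 (−0.16 to 0.24, adjusted P = 0.78) and −0.08 (−0.27 to 0.12, adjusted P = 0.65) in the same comparisons.

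**Figure D2:**
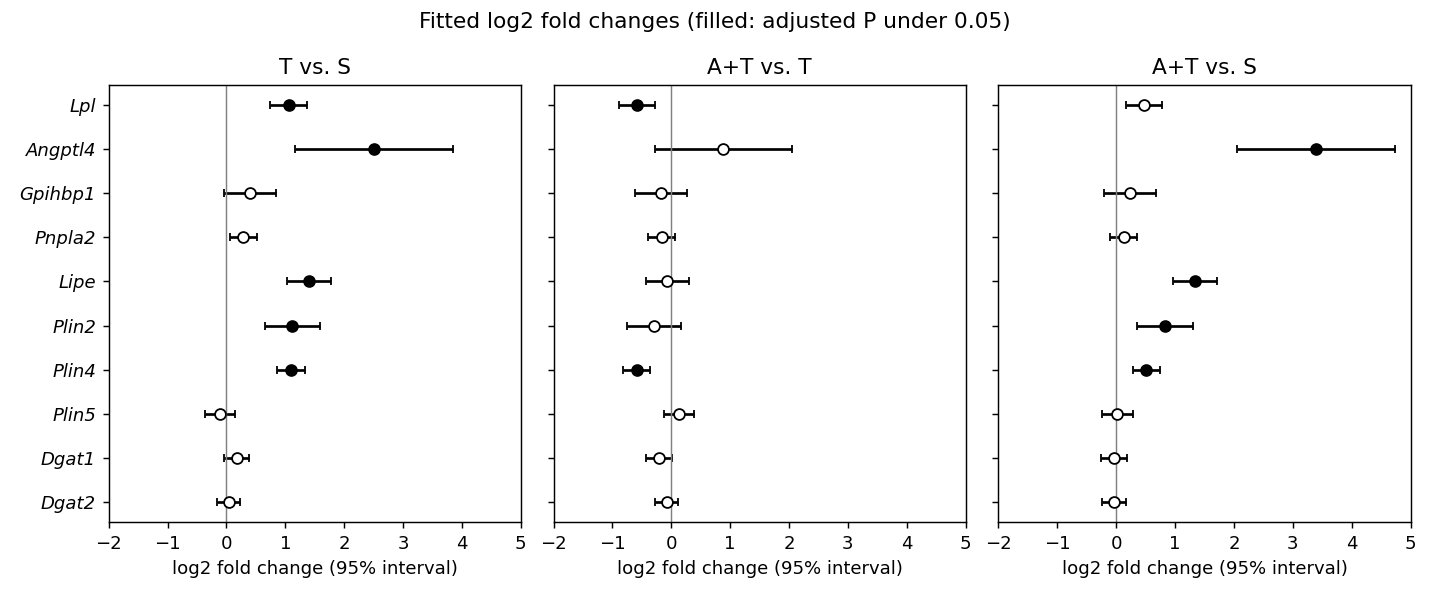
Log2 fold change (horizontal axis) of each gene in the 3 comparisons, with its 95% interval; filled points passed the test at an adjusted P under 0.05. The 5 genes that rose in T vs. S lie at 1.06 to 2.51, and only Lpl and Plin4 lie below 0 with a filled point in A+T vs. T.

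Levels were compared between genes only on the deposited log2 scale, which is scaled for depth and for gene length. In S, Lpl had a mean of 10.29 and ranked 25th of 13890 genes. Pnpla2 followed at 7.25, then Dgat2 at 6.24, Plin5 at 5.62, Gpihbp1 at 5.19, Plin4 at 5.03, Plin2 at 4.87, Dgat1 at 3.50, Lipe at 3.43 and Angptl4 at 1.29. Of the neighbours in that order, Gpihbp1 and Plin4 overlapped between libraries, as did Dgat1 and Lipe. In T, Lpl ranked 13th of all genes (11.35). From Dgat2 (6.28) through Plin4 (6.13), Plin2 (5.95) and Gpihbp1 (5.6) to Plin5 (5.5), each gene overlapped the next. Plin5 did not overlap Lipe (4.85), which followed it. Angptl4 moved from rank 9498 in S to 3848 in T and 1780 in A+T, where its mean of 4.93 overlapped Lipe (4.78) and Gpihbp1 (5.37). Dgat1 had the lowest mean of the 10 genes in T (3.68), where it overlapped Angptl4 (3.75), and in A+T (3.46).

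**Figure D3:**
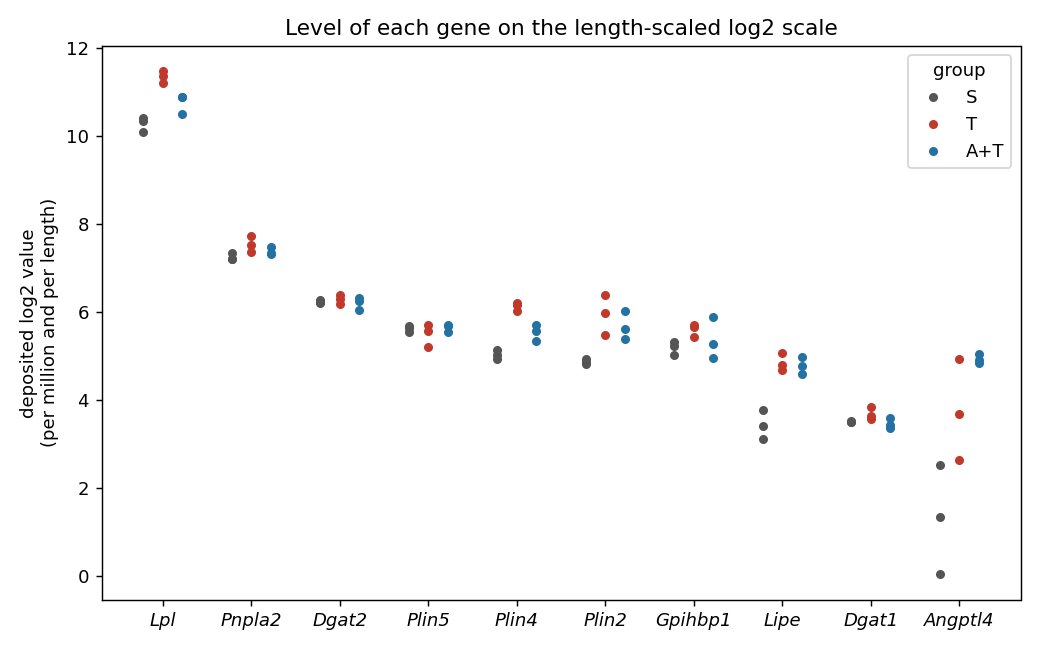
Deposited log2 value per library (vertical axis, scaled for depth and length) of the 10 genes, ordered by their mean over the 9 libraries; the 3 colours are the groups. Lpl stands above the other genes in each library, and Angptl4 has the widest spread, from 0.03 to 5.04.

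Ratios of counts within a library do not depend on the scaling between libraries, and 3 were taken after the levels had been seen. Angptl4 per 1000 Lpl counts was 0.342, 1.04 and 1.95 in S, 5.45, 1.23 and 2.09 in T, and 8.16, 7.36 and 9.28 in A+T. S and T overlapped (two-sided exact permutation test, P = 0.2), and A+T was above every other library (P = 0.1 vs. T and vs. S, the smallest P that 3 against 3 allows). Plin4 per Plin5 count was 2.12, 1.67 and 1.87 in S, 3.83, 4.99 and 4.40 in T, and 2.88, 2.81 and 2.25 in A+T, with no overlap between any groups (exact P = 0.1 in each comparison). Lipe per Pnpla2 count was 0.0708, 0.0856 and 0.101 in S, 0.191, 0.189 and 0.181 in T, and 0.181, 0.184 and 0.236 in A+T. T and A+T were above S (exact P = 0.1), while T and A+T overlapped (P = 0.9). With 3 libraries a group, no such test can pass 0.05.

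**Figure D4:**
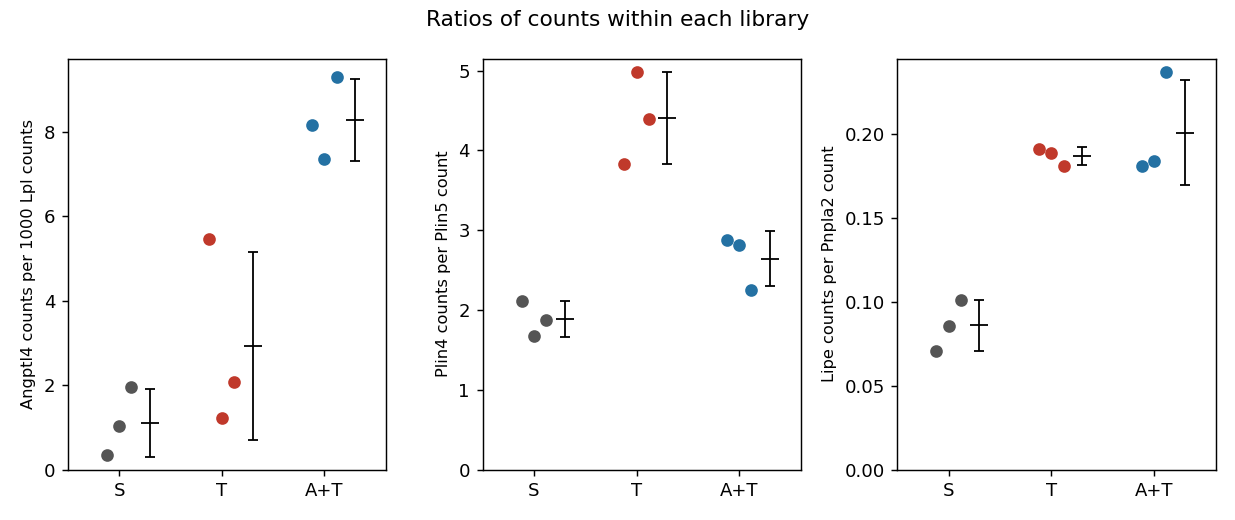
Ratios of raw counts within each library (vertical axes from 0) in S, T and A+T, with points for animals and bars for mean and SD. Angptl4 per 1000 Lpl is highest in A+T (7.36 to 9.28), Plin4 per Plin5 in T (3.83 to 4.99), and Lipe per Pnpla2 is alike in T and A+T.

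Other genes of the system were taken from 4 lists by function, 69 genes of which 58 were in the counts and 56 could be tested. In T vs. S, 11 rose and 9 fell, with a median log2 fold change of 0.00. Between A+T and T the counts were 5 higher and 4 lower, and against S 6 higher and 2 lower (6 and 1 with upper-quartile scaling, 4 and 0 with library size only). Of all genes tested, 21.2% passed in T vs. S, 5.88% in A+T vs. T and 8.31% in A+T vs. S.

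Among 15 tested genes of lipoprotein and fatty acid uptake, 2 rose and 5 fell in T vs. S (median −0.33), where 21.2% of all genes passed. Slc27a1, the fatty acid transport protein FATP1, rose (log2 fold change 0.65, adjusted P = 0.0020), at 220, 173 and 215 CPM in T against 124, 123 and 141 CPM in S. Cd36, the main fatty acid translocase of heart, rose by 0.31 (adjusted P = 0.041), a call lost without any one of animals 2, 5, 11, 12, 15, 20 or 21 (adjusted P up to 0.144). Fabp5, a fatty acid binding protein of endothelium, fell by 1.08 (adjusted P = 0.0021) and rose by 0.91 in A+T vs. T (adjusted P = 0.018). The endocytic receptor gene Lrp1 fell by 0.81 (adjusted P = 0.032), and the lipase maturation factor Lmf1 and Slc27a4 fell as well. The call for Lrp1 was lost without animal 2, 5, 11, 12 or 15 (adjusted P up to 0.126), and the A+T vs. T rise of Fabp5 without animal 11 or 12 (0.086). Apoe rose (0.59, adjusted P = 0.025) and Furin, a protease that cleaves lipase and inhibitor alike, fell (−0.47, adjusted P = 0.028) in A+T vs. T. The first was lost without animal 11, 15 or 20 (adjusted P up to 0.101) and the second without animal 11, 12, 15 or 21 (0.086). Apoe is a gene that macrophages express strongly. In A+T vs. T, 4 of 6 macrophage markers rose as well, where 3.09% of all genes rose. The summed level of these markers was 474 to 706 CPM in A+T, 245 to 335 CPM in T and 281 to 308 CPM in S. Their part in the rise of Apoe was not tested.

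Of 11 lipolysis regulators, 1 rose and 1 fell in T vs. S (median 0.03), where 21.2% of all genes passed. Protein kinase A phosphorylates hormone-sensitive lipase and perilipins. Prkaca, the gene of a catalytic subunit of this kinase, was at 0.03 in T vs. S (adjusted P = 0.84). Prkar1a, the gene of a regulatory subunit, rose by 0.85 (adjusted P = 0.00049) and fell by 0.69 in A+T vs. T (adjusted P = 0.0070). Ces1d, a carboxylesterase that splits triglyceride, moved the other way, at −0.80 (adjusted P = 0.0037) and 0.73 (adjusted P = 0.020), the latter lost without animal 12 or 15 (adjusted P up to 0.059). Lipa, the lysosomal acid lipase, rose in A+T vs. T (0.39, adjusted P = 0.043), which held only without animal 21 or 22 when 1 of the 9 animals was left out (adjusted P up to 0.158 otherwise). Abhd5 and G0s2, the coactivator and the inhibitor of the Pnpla2 product, were picked for that role after their values were seen. Neither passed in T vs. S, at −0.24 (adjusted P = 0.069) and −0.37 (adjusted P = 0.16).

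In the list of droplet coat and formation genes, 5 of 12 rose and 1 fell in T vs. S (median 0.17), where 21.2% of all genes passed. Tmem159, which encodes the droplet assembly factor LDAF1, rose by 0.99 (adjusted P = 0.00011), from 22.7, 24.2 and 24.1 CPM in S to 51.1, 45.0 and 45.1 CPM in T, with 36.9, 37.3 and 41.6 CPM in A+T. Hsd17b11, a droplet-bound dehydrogenase, rose by 0.74 (adjusted P = 0.0036), and Cidea, which promotes droplet fusion, by 0.73 (adjusted P = 0.0030). Plin3 and Aup1 rose as well, and Faf2 fell (−0.31, adjusted P = 0.022), a call lost without animal 3, 5, 11 or 15 (adjusted P up to 0.080). The only gene of this list that passed in A+T vs. T was Plin3 (−0.32, adjusted P = 0.039), lost without animal 2, 3, 5, 11, 12, 20 or 21 (adjusted P up to 0.149).

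Of 18 triglyceride synthesis genes, 3 rose and 2 fell in T vs. S (median 0.01), where 21.2% of all genes passed. Agpat2 (0.59, adjusted P = 0.0048), Gpd1 (0.46, adjusted P = 0.0042) and Gpam (0.41, adjusted P = 0.033) rose. Acsl6, an acyl-CoA synthetase at 1.03 to 3.91 CPM in S and T, fell by 1.33 (adjusted P = 0.0042) and Agpat6 by 0.26 (adjusted P = 0.044). Gpd1 fell by 0.75 in A+T vs. T (adjusted P = 0.0027) to 55.8, 52.6 and 53.6 CPM, below every S library (65.1, 60.1 and 73.6 CPM). Acsl6 rose by 1.09 in the same comparison (adjusted P = 0.032), lost without animal 2, 3, 11, 12, 15 or 20 (adjusted P up to 0.107). In T vs. S, the call for Gpam was lost without animal 2, 3, 5, 11 or 15 (0.124), and that for Agpat6 without any animal but 22 (0.151).

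**Figure D5:**
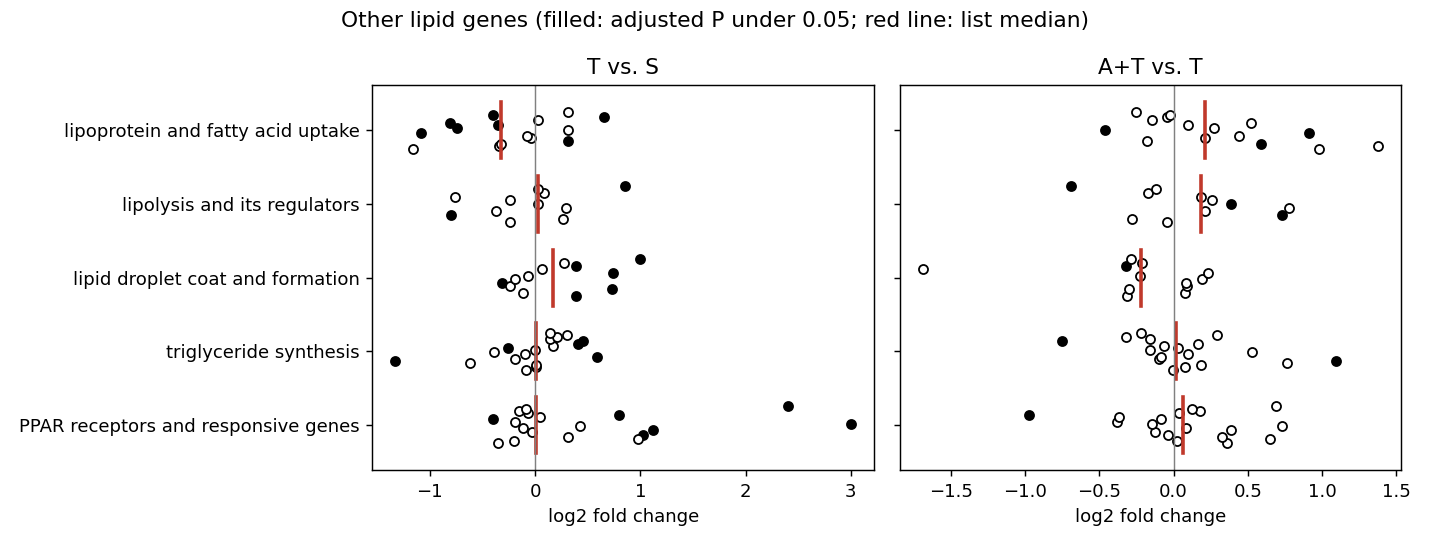
Log2 fold change (horizontal axes) of each tested gene in the 4 function lists and the PPAR list, for T against S (left) and A+T against T (right); filled points passed the test, and a red line marks the list median. Rises and falls occur in each list in T vs. S, and the medians lie between −0.33 and 0.17.

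The PPARs, their partner Rxra, the coactivators Ppargc1a and Ppargc1b and genes known to respond to them made a further list of 18. In T vs. S 5 rose and 1 fell (median 0.01), in A+T vs. T none rose and 1 fell, and in A+T vs. S 6 rose and 2 fell. Over all genes, 21.2%, 5.88% and 8.31% passed in these comparisons, in the same order. Pdk4, the kinase that shuts off pyruvate dehydrogenase, rose by 3.00 in T vs. S (SE 0.50, adjusted P = 0.0026), from 126, 259 and 597 CPM in S to 3867, 1558 and 2436 CPM in T. This value was 3.77 without animal 5. Ucp3, a mitochondrial carrier, rose by 2.40 (SE 0.38, adjusted P = 0.0021), from 8.35, 12.4 and 25.5 CPM to 115, 48.4 and 76.8 CPM, with 133, 136 and 120 CPM in A+T. As with Angptl4, animal 2 had the lowest and animal 5 the highest S value of both genes, and animal 12 the lowest T value. Ehhadh rose by 1.12 (adjusted P = 0.0045), and Cpt1a, the carnitine palmitoyltransferase of the liver type, by 1.03 (adjusted P = 0.00015). Ppargc1a, the coactivator PGC-1α, rose by 0.79 (adjusted P = 0.033), at 213 to 375 CPM in T against 157 to 206 CPM in S. Fits with 1 animal left out are not given for this rise. It fell by 0.97 in A+T vs. T (adjusted P = 0.037), a call lost without animal 2, 3, 5, 11, 15, 20 or 21 (adjusted P up to 0.143). None of the 3 PPARs rose. Ppard fell by 0.40 in T vs. S (adjusted P = 0.021, and up to 0.082 without animal 2, 3, 12 or 15), Ppara was at −0.19 (adjusted P = 0.31) and Pparg, at 7.54 to 12.4 CPM, at 0.05 (adjusted P = 0.87). Against S, the A+T libraries had less of 2 receptors, as Ppara fell by 0.57 (adjusted P = 0.022) and Ppard by 0.49 (adjusted P = 0.021). Fits with 1 animal left out are not given for these 2 falls.

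For 3 of the genes, the most similar profiles over the 9 libraries were looked up among 13173 other genes with a mean of at least 10 counts, the 10 genes themselves left out, by Pearson correlation of log2 CPM. The values are a description, since the 9 points share the 3 groups. Outside the 10 genes, Lpl was most like Lama5 (r = 0.986), Stat3 (0.978) and BC005537 (0.977). Plin4 was most like Tns2 (0.990), Lama5 (0.988) and Stat3 (0.979) outside the 10 genes. Lpl and Plin4 themselves gave 0.989, which was above the value of Lpl with Lama5. Lama5, a laminin chain, was at 87.9 ± 14.1 CPM in S, 226 ± 24.0 CPM in T and 132 ± 28.3 CPM in A+T (SD, n = 3). Angptl4 was most like Ucp3 (0.983), Ehhadh (0.967) and Aldh9a1 (0.962), of which the first 2 are on the PPAR list.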

How the data were processed

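mRNA enriched from the total RNA of 9 hearts was sequenced as 75-base paired ends. The authors aligned reads to mm10 with STAR, counted uniquely mapped, strand-matched reads on RefSeq genes with featureCounts and deposited raw counts per gene. They also deposited log2 values, whose difference from the log2 CPM computed here was nearly constant per gene, as for scaling by length. Its SD over libraries had a median of 0.0027 and a highest value of 0.117. In each file 3443 blank lines were skipped. Rn45s, a ribosomal RNA gene, took 4.57% to 19.6% of the counts. Floors on counts cover counting error only, while the 95% intervals come from the fit and include the spread between animals.

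Genes under 0.5 CPM in more than 4 of 9 libraries were removed (526 of 13890). The 3 comparisons were tested with edgeR 4.0.16 (R 4.3.3; TMM, quasi-likelihood, 9 libraries in 1 fit, Benjamini-Hochberg adjustment). Steps were tested on simulated data. Ratios were tested with scipy 1.17.1 on log2 ratios. Correlations used log2(CPM + 0.1). Positions are from GENCODE M21. The alternatives were DESeq2 1.42.0, limma-voom (limma 3.58.1), upper-quartile scaling, no scaling beyond library size, testing without a filter or only genes with at least 10 counts in each library, fitting only the compared groups, the deposited log2 values with limma, each animal left out, the study's thresholds and, added after seeing the data, leaving out Rn45s. Named were all 10 genes, the PPAR receptors, up to 3 risers and 3 fallers with the largest passing changes per list for T against S and for A+T against T, marker lists, and 3 most similar genes for Lpl, Angptl4 and Plin4. A few others were picked after their values were seen, and 1 gene that the rule names is not reported here. The genes and lists were chosen with earlier results of these data known.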

Additional observations from a re-analysis of the deposited data

How the results depend on the processing

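Lpl, Lipe, Plin2 and Plin4 in T vs. S and Lipe in A+T vs. S kept their direction and their side of the threshold in all 18 alternatives. No scaling moved the median of all genes by as much as 0.1 on the log2 scale. Between A+T and T, the count of 2 of the 10 genes became 1 with library size only, 1 with the deposited log2 values, 1 at the study's thresholds and 0 with only the compared groups in the fit, and 0 to 3 with 1 animal left out (0 without animal 11, 1 without animal 2, 3, 5, 15, 20 or 21). Between A+T and S, the count of 4 was 5 with DESeq2, limma-voom or upper-quartile scaling, 3 with the deposited log2 values or at the study's thresholds, and 1 to 4 with 1 animal left out (1 without animal 3, 2 without animal 5 or 21). Of the 56 other lipid genes, the 20 that passed in T vs. S became 11 with library size only and 12 to 24 with 1 animal left out (12 without animal 5). The 9 in A+T vs. T became 4 with library size only, 5 with the deposited log2 values, 2 with only the compared groups, and 3 to 12 with 1 animal left out (3 without animal 11, 4 without 12 or 15, 5 without 20). The 8 in A+T vs. S became 4 with library size only, 5 with the deposited log2 values, and 3 to 8 with 1 animal left out (3 without animal 2 or 3, 5 without 5). The cause was not tested. Leaving out animals aside, there were 9 alternatives for each other gene named by the rule. In A+T vs. T, Plin3 passed in 5 of these, Apoe, Furin and Lipa in 6, Acsl6 and Ppargc1a in 7, and Ces1d and Fabp5 in 8. In T vs. S, Agpat6, Cd36 and Gpam passed in 7, and Faf2, Gpd1, Lrp1 and Ppard in 8.

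With 1 animal left out, the sign turned in 11 fits of 9 log2 fold changes, none of which passed the test in the fit of all 9 libraries or in the turned fits. For A+T vs. T, Gpihbp1 ranged from −0.48 to 0.014 (turned without animal 20), Lipe from −0.18 to 0.054 (without 11, and 0.024 without 20) and Plin5 from −0.0015 (without 12) to 0.24. For T vs. S, Plin5 ranged from −0.22 to 0.024 (without 12) and Dgat2 from −0.011 (without 11) to 0.094. For A+T vs. S, Gpihbp1 ranged from −0.074 (without 22) to 0.42, Plin5 from −0.014 (without 21, and −0.0081 without 2) to 0.073, Dgat1 from −0.10 to 0.011 (without 21) and Dgat2 from −0.089 to 0.043 (without 22). No paired analysis was made, because each library came from a different animal and the labels name no matched animals across the groups. Angptl4 had 33 to 149 counts in S and the widest intervals of the 10 genes.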
